A study of Mus musculus with 6 samples.

Results

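The antigen receptor segments are the genes that encode T cell receptors and immunoglobulins: the variable (V), joining (J) and constant (C) genes of 7 loci. They were taken as all rows of the deposited gene table whose gene type begins with TR_ or IG_, and 121 of the 21825 genes listed qualified, 72 T cell receptor and 49 immunoglobulin genes. Of the T cell receptor genes, 48 are V, 16 are J and 8 are C genes, and of the immunoglobulin genes 37 are V, 2 are J and 10 are C genes. No D gene and no pseudogene is among them. The genes span the T cell receptor alpha locus (TRA, 31 genes), delta (TRD, 3), beta (TRB, 25) and gamma (TRG, 13), and the immunoglobulin heavy chain locus (IGH, 24), kappa (IGK, 20) and lambda (IGL, 5). Each listed gene had a total of at least 10 counts over the 6 libraries, whereas the GENCODE M21 annotation holds 702 genes of these types, so sums over V genes cover the listed genes alone.

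The study profiled RNA of group 2 innate lymphoid cells (ILC2s), lymphocytes that secrete type 2 cytokines without an antigen receptor, sorted out of lung tissue of BALB/c mice, 6 weeks of age. All mice had received 3 intraperitoneal injections of 1 µg recombinant interleukin-33, and all cells were cultured for 48 h with interleukin-2 and interleukin-7 at 10 ng/mL each. The 3 libraries of the TNFa group came from cells that also received tumour necrosis factor (TNFa) at 40 ng/mL, and the 3 libraries of the PBS group from cells given the PBS vehicle. The libraries are PBS 1, 2 and 3 and TNFa 4, 5 and 6. The labels do not say whether they came from separate mice, pools or cultures, and each p-value speaks to no more than the variation among the 6 libraries, which may be technical.

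A T cell or B cell makes its receptor by joining V, sometimes D, and J segments in its genomic DNA with the RAG recombinase, and the joined segment is then spliced in RNA to a constant gene. A rearranged transcript therefore carries V, J and C sequence, whereas an unrearranged locus can also be transcribed from promoters near the J and C genes, which gives germline or "sterile" transcripts with C but no V sequence. Each B cell clone uses 1 heavy and usually 1 light chain V gene, so the V genes found in few B cells differ from sample to sample. Innate lymphoid cells do not depend on RAG or on a rearranged receptor for their development.

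The sequences that separate the members discussed most are given first, because several members are near-identical and share reads. All are from the mm10 (GRCm38) reference, from GENCODE M21 transcripts for the coding sequences, and read 5′ to 3′ on the gene's own strand. The immunoglobulin lambda constant genes lie on the minus strand of chromosome 16, Iglc3 at chr16:19065230-19065681, Iglc1 at chr16:19061618-19062071 and Iglc2 at chr16:19198396-19200351. The first 300 coding bases of each are shown, and capitals in Iglc1 and Iglc2 mark the bases that differ from Iglc3 or have no partner in it.
Iglc3: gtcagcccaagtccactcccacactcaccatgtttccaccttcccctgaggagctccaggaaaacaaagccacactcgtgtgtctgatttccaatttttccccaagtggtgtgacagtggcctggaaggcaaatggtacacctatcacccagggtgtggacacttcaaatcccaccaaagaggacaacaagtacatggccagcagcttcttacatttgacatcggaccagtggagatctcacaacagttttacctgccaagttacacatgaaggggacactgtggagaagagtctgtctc
Iglc1: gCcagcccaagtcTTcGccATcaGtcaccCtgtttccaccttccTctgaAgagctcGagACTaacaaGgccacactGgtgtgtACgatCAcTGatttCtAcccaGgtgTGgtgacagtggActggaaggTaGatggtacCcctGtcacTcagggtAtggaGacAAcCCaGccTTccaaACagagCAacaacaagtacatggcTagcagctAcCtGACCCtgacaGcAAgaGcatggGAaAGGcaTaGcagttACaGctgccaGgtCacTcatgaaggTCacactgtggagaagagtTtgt
Iglc2: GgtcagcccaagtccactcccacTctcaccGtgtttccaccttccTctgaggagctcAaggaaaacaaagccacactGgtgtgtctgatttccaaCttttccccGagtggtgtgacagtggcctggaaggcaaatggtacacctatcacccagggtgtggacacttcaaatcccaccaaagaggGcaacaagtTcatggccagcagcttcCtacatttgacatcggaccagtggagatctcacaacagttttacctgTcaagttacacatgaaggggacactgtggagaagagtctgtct
Iglc2 was 96.2% identical to Iglc3 over the aligned coding bases, with 11 mismatches and a longest shared run of 79 bases. Iglc1 was 74.5% identical to Iglc3, with 76 mismatches and a longest shared run of 17 bases, so a read over more than those 17 coding bases fits only one of them exactly.

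The T cell receptor beta constant genes Trbc1 and Trbc2 are the most abundant near-identical pair. Trbc2 lies on the plus strand at chr6:41546730-41548352, and capitals in its last 300 coding bases, positions 219 to 518, mark those that differ from Trbc1.
Trbc2: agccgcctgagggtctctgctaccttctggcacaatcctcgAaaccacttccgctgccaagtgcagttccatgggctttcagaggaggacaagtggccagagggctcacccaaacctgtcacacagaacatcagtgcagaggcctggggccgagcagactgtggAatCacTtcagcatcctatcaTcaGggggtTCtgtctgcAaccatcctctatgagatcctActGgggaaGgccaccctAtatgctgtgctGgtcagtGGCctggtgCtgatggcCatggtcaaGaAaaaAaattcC
The first 259 coding bases were identical between the genes, and all 23 mismatches among 518 aligned bases lay after them, for an identity of 95.6%. The heavy chain V gene Ighv11-2, on the minus strand at chr12:114048241-114048812, was 98.9% identical to Ighv11-1, with 4 mismatches over 353 coding bases, shown in capitals in positions 54 to 353.
Ighv11-2: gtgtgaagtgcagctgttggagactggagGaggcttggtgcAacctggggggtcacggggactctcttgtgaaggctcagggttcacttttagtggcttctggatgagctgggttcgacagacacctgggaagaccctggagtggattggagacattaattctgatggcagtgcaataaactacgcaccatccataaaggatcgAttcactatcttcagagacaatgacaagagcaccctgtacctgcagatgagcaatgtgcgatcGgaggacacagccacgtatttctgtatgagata
The most abundant J segments were Trgj1 at chr13:19210343-19210402, Trgj4 at chr13:19342152-19342212 and Trbj2-1 at chr6:41542754-41542803, all on the plus strand. Capitals mark a motif of TTNG, any 5 bases and GG, searched on the coding strand only. The motif fits the conserved Phe-Gly stretch by which J segments are recognised, but also other codons in place of Gly. In Trbj2-1 it opens with Phe-Gly codons, whereas in Trgj1 and Trgj4 it opens with Phe-Ala codons.
Trgj1: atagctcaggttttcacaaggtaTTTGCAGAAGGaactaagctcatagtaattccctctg
Trgj4: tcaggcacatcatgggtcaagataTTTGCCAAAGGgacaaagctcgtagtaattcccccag
Trbj2-1: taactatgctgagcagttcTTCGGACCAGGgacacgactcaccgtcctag
The motif was found in 16 of the 18 J genes in the table (88.9%) and in 71 of all 84 J genes of the annotation (84.5%). In all, 24 members fell into 12 pairs of near-identical genes (at least 95% identity over at least 80% of the shorter sequence).

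The libraries held 25089415 to 32487004 counts, and the antigen receptor segments took 0.0865% to 0.105% of them. The libraries carried the ILC2 marker list at summed levels of 11208 to 12442 CPM (the usual depth-scaled read counts) with PBS and 11972 to 12820 CPM with TNFa, with library sizes corrected by the trimmed mean of M values (TMM). Il5 and Il2ra led that list, and 14 of its 14 genes were tested. TNFa 5 had the lowest share of immunoglobulin genes (0.0162% of counts, against 0.0188% to 0.0302% in the others). Of the B cell list, Cd79a was at 0 in TNFa 5 alone and Blk in TNFa 5 and TNFa 6, whereas Ebf1 at 3.85 CPM and Fcer2a at 1.01 CPM had their highest values in TNFa 5.

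Constant genes of the T cell receptor gamma and beta loci were the most abundant members. A scale per kilobase of exon allows for gene length. On it, Trbc2 stood at 327 CPM per kb over the 6 libraries, Tcrg-C1 at 222, Tcrg-C4 at 171 and Trbc1 at 128. The alpha constant gene Trac stood at 11.3 CPM per kb and the delta constant gene Trdc at 1.66 CPM per kb. Among immunoglobulins, the kappa constant gene Igkc reached 80.7 CPM per kb and the constant gene of IgM, Ighm, 52.5 CPM per kb.

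Per library, Tcrg-C1 was at 221, 216 and 220 CPM in PBS 1 to 3 and at 197, 192 and 187 CPM in TNFa 4 to 6. All 3 TNFa values lay below all 3 PBS values; in bulk RNA, fewer cells of a type and less RNA per cell cannot be told apart. Tcrg-C4 was at 183, 178 and 184 CPM with PBS and 162, 155 and 150 CPM with TNFa, again without overlap. Tcrg-C2 was far lower, at 3.03, 1.87 and 1.87 CPM with PBS and 1.70, 0.224 and 2.36 CPM with TNFa, and its groups overlapped. It is 94.6% identical to Tcrg-C1 over the aligned coding bases. Its counts were not whole in any library, so its own level is uncertain. These constant genes encode the stem and membrane anchor of the gamma chain. Trbc2 was at 249, 244 and 232 CPM with PBS and 203, 236 and 193 CPM with TNFa, and here TNFa 5 lay within the PBS range. Trbc1 was at 114, 95.7 and 104 CPM with PBS and 78.8, 96.9 and 85.4 CPM with TNFa, so that its groups overlapped through the same library. Trac was at 11.7, 12.0 and 12.3 CPM with PBS and 10.2, 7.88 and 9.52 CPM with TNFa, without overlap. Trdc was at 6.67, 7.0 and 6.17 CPM with PBS and 6.87, 5.94 and 5.92 CPM with TNFa, and its groups overlapped.

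**Figure D1:**
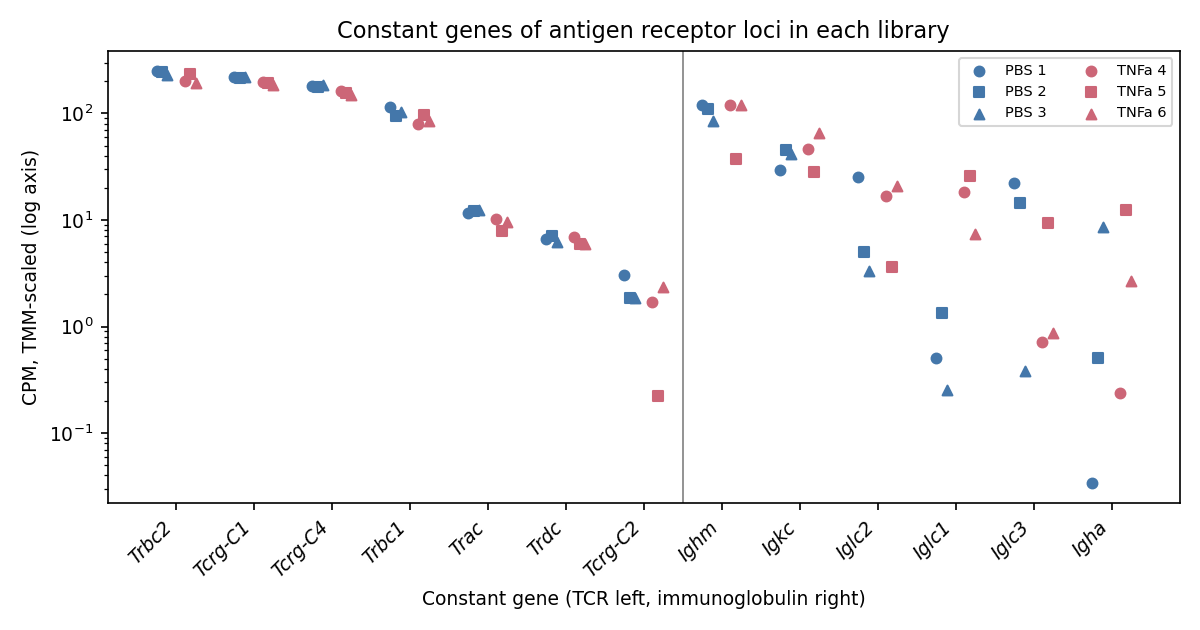
Level in each library of the tested constant genes that were above 0 in every library, in TMM-scaled CPM on a log axis. T cell receptor genes are left of the line and immunoglobulin genes right of it. Each point is 1 library, blue for PBS and red for TNFa, with 1 shape per library of a group. The T cell receptor genes above 5 CPM sit in tight clusters, whereas Iglc1, Iglc2, Iglc3 and Igha spread over a wide range between libraries.

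The spread between replicate libraries differed between the receptor families. Among members with a PBS mean of at least 1 CPM, the coefficient of variation over the 3 PBS libraries had a median of 8.07% for the 14 T cell receptor genes and 98.0% for the 18 immunoglobulin genes. For T cell receptor constant genes it was 3.54% (7 genes), and for immunoglobulin V genes 105% (13 genes). The cut uses the same PBS libraries, so a gene can pass it through 1 library alone. Igkv13-84 (8.38, 0 and 0 CPM) and Ighv6-6 (9.09, 0 and 0 CPM) did so. Each then stood at 173%, the highest value that 3 libraries allow, so the medians describe the kept genes alone. T cell receptor constant genes were above 0 in every library, and 19.1% of all values of T cell receptor V genes were 0. Among immunoglobulins, 23.3% of all values of constant genes and 52.7% of those of V genes were 0.

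Variable segments were scarce beside constant segments at the beta and gamma loci and closer to their level at TRA and the immunoglobulin loci. For each locus the summed level of the listed V genes was set against the summed level of the C genes, both per kilobase of exon. At TRB the V genes reached 2.27 to 4.34 per 100 of the C level over the 6 libraries, and at TRG 1.04 to 1.83. At TRA they reached 66.7 to 81.3 per 100, at IGH 66.1 to 86.9, at IGK 54.2 to 95.2 and at IGL 75.8 to 105. The ranges of TRB and TRG thus lay below those of all the other loci in all 6 libraries, and within each locus the PBS and TNFa libraries overlapped. TRD was the exception in the other direction, at 460 to 991 per 100. There 1 V gene, Trdv4, is set against a Trdc gene with 3865 exonic bases in the annotation. Antisense genes overlap Trdv4 over 611 bases and Trdc over 3437 bases, and whether the counting used strand is not given. Trdc counts were not whole in any library, so this ratio is uncertain.

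**Figure D2:**
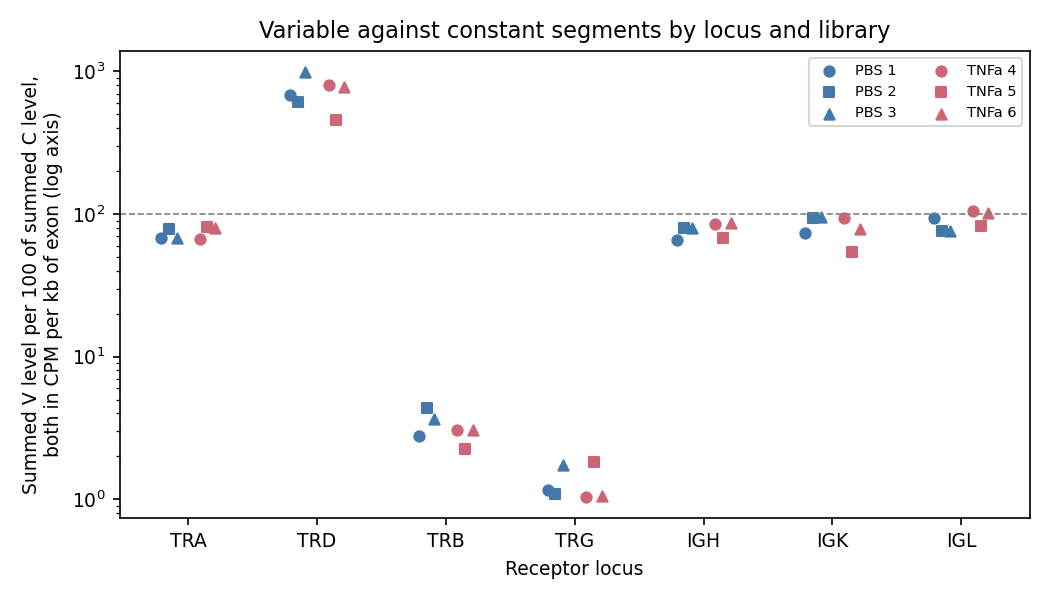
Summed V level per 100 of summed C level at each receptor locus, both in CPM per kb of exon, on a log axis; each point is 1 library (blue PBS, red TNFa) and the dashed line marks equal levels. TRB and TRG lie between 1.04 and 4.34 in all libraries, and the 3 immunoglobulin loci and TRA between 54.2 and 105.

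In counts, the constant genes made up 95.1% to 96.6% of the TRB total and 96.4% to 97.2% of the TRG total, against 73.4% to 77.6% at TRA, 84.5% to 88.7% at IGH, 60.5% to 72.5% at IGK and 56.4% to 67.4% at IGL. Read counts grow with gene length, so these shares are not the ratio of molecules.

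Per kilobase of exon, the summed J level stood between the summed V and C levels at the beta and gamma loci. In CPM, beta V genes summed to 4.48 to 8.50 and beta J genes to 6.99 to 9.96, with V above J in PBS 2. A J segment is short and lies just upstream of its C gene, so it can also be part of germline transcripts that start before it. Per kilobase, Trgj1 stood at 82.4, Trbj2-1 at 80.8 and Trgj4 at 80.3 CPM per kb, below their constant genes. With 50 to 61 exonic bases in these genes, their values per kilobase are uncertain. Trgj1 was at 4.12, 4.59 and 6.51 CPM with PBS and 4.26, 5.26 and 4.93 CPM with TNFa, and Trgj4 at 5.18, 4.83 and 5.6 CPM with PBS and 4.82, 3.96 and 5.02 CPM with TNFa. The groups overlapped for both genes, which together made up nearly all gamma J counts, Trgj1 with 44.0% to 57.1% and Trgj4 with 42.9% to 55.3%. Trbj2-1 was at 4.19, 4.32 and 4.65 CPM with PBS and 3.40, 3.55 and 4.14 CPM with TNFa, without overlap, and gave 44.9% to 54.0% of all beta J counts. No J gene of the kappa or lambda locus was listed.

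T cell receptor V genes were low, and 30 of the 48 were at 0 in at least 1 library. Trbv19 had the most counts of the 13 beta V genes in 5 of 6 libraries, with 19.7% to 31.9% of beta V counts. In TNFa 4 it shared that place with Trbv1, at 24 counts each. Trbv13-2 led in PBS 3 with 19.8%. The level of Trbv19 was 1.84, 1.73 and 1.36 CPM with PBS and 0.948, 1.38 and 1.60 CPM with TNFa, with overlap between the groups. Trbv1 was at 1.67, 1.33 and 1.11 CPM with PBS and 0.948, 0.896 and 0.725 CPM with TNFa, without overlap. Trbv31 was uneven, at 0.102, 0.612 and 0.664 CPM with PBS and 0.0395, 0.336 and 0.393 CPM with TNFa, and its log2 fold change was -0.82 ± 0.93 (SE), at an edgeR quasi-likelihood adjusted p of 0.86 (Benjamini-Hochberg). Trgv2 held 37.5% to 68.6% of gamma V counts. It was at 1.33, 1.02 and 1.14 CPM with PBS and 1.22, 1.12 and 0.937 CPM with TNFa, and its groups overlapped. It is 94.9% identical to Tcrg-V1 over 374 aligned bases, and the counts of both were whole only in TNFa 5. The level and share of Trgv2 are therefore uncertain. Trdv4 was the only V gene listed at the delta locus, and an antisense gene overlaps it in the annotation. Its level was 5.28, 4.89 and 7.02 CPM with PBS and 6.36, 3.14 and 5.32 CPM with TNFa. At 12.0 CPM per kb it was the most abundant T cell receptor V gene listed. The delta J gene Trdj1 stayed at or under 0.190 CPM. At the alpha locus 28 V genes were listed, none reached the level needed for the test, and a different one led in each of the 6 libraries. The 3 most abundant were Trav3-3 at 0.0790 to 0.574 CPM, Trav7d-4 at 0 to 0.443 CPM and Trav12-3 at 0 to 0.514 CPM, and Trav7-4, the near-identical copy of Trav7d-4, was at 0 to 0.333 CPM.

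Immunoglobulin V genes held more of their level in a single library than T cell receptor V genes did. The library with the highest level held a median of 77.2% of the summed level of an immunoglobulin V gene (37 genes) and 38.5% for a T cell receptor V gene (48 genes). With at least 100 counts in total, the medians were 61.7% for 17 immunoglobulin V genes and 21.9% for 5 T cell receptor V genes. A gene can be listed, or reach 100 counts, through 1 library alone, as Igkv13-84 did with 246 counts in PBS 1. In 12 of the 37 immunoglobulin V genes and in 0 of the 48 T cell receptor V genes a single library held at least 90%.

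At the heavy chain locus Ighv11-1 was at 0, 8.74 and 9.71 CPM in PBS 1 to 3 and 8.61, 0 and 8.28 CPM in TNFa 4 to 6. It was the leading heavy chain V gene in the 4 libraries that held it, with 39.8% to 66.5% of heavy chain V counts. Ighv6-6 led in PBS 1 with 59.8% and Ighv2-9 in TNFa 5 with 34.7%. Ighv2-9-1 was at 2.79, 3.09 and 0 CPM with PBS and 2.53, 0.933 and 3.75 CPM with TNFa, with overlap. At the kappa locus Igkv14-126 was at 0, 15.8 and 18.3 CPM with PBS and 21.2, 0 and 24.2 CPM with TNFa, at 0 in the same 2 libraries as Ighv11-1. It gave 53.2% to 70.8% of kappa V counts where it was found. In PBS 1 the leading kappa gene was Igkv13-84 with 246 counts, all in that library, and in TNFa 5 it was Igkv4-91 with 154 of its 157 counts. Ighv12-3 had 38 counts, all in TNFa 5. Igkv15-103 was above 0 in PBS 1 and TNFa 6, at 4.09 and 6.59 CPM, and Igkv4-61 had 8.33 CPM in PBS 2 and at most 0.750 CPM elsewhere. Igkv12-44 was at 0.170, 0 and 0.380 CPM with PBS and 0, 3.40 and 0.453 CPM with TNFa. Its log2 fold change of 2.77 ± 1.48 (SE), the second in size after Iglc1, rests on TNFa 5 and had an edgeR quasi-likelihood adjusted p of 0.68 (Benjamini-Hochberg); without TNFa 5 it was 0.33.

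By way of background, heavy chains of the Ighv11 family with Igkv14-126, and Ighv12-3 with Igkv4-91, are known chain pairs of B-1 cells, innate-like B cells, that bind phosphatidylcholine. In these libraries the members of each pair were found in the same libraries, Ighv11-1, Ighv11-2 and Igkv14-126 in PBS 2, PBS 3, TNFa 4 and TNFa 6, and Ighv12-3 with most of Igkv4-91 in TNFa 5. These pairs were singled out after their values were seen, and bulk RNA does not show which chains share a cell. The B cell list, with 13 of 14 genes listed, summed to 24.5–25.2 CPM with PBS and 19.4–22.3 CPM with TNFa. It was led by Cd79b at 17.2, 16.6 and 16.0 CPM with PBS and 12.5, 11.8 and 12.5 CPM with TNFa, which is most of the sum. Of the 9 tested genes, Cd79b alone was lower without overlap, against 8.36% of all tested genes. A log2 fold change above 0 was found for 3 of the 9. Cd79a was at 0.409, 1.05 and 0.949 CPM with PBS and 0.553, 0 and 1.30 CPM with TNFa, and Pax5 was not listed. The part of these cells in the immunoglobulin levels was not tested.

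**Figure D3:**
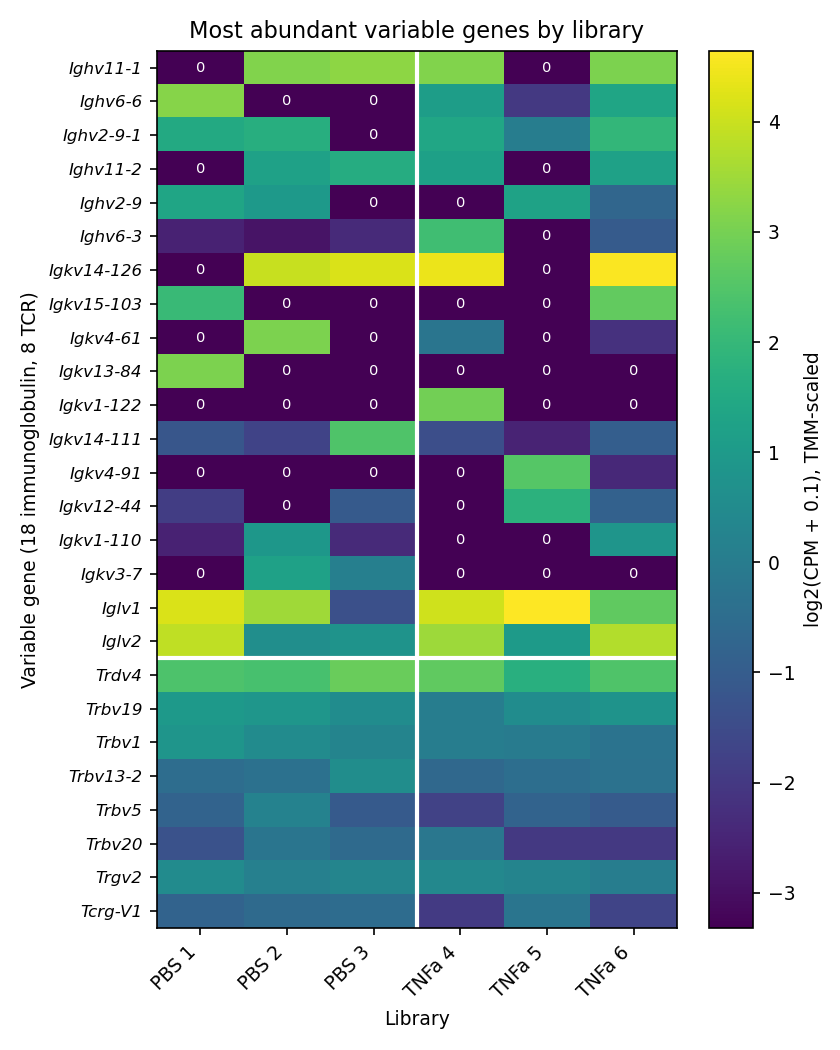
Heat map of log2(CPM + 0.1) for the most abundant V genes, 18 immunoglobulin genes above the white horizontal line and 8 T cell receptor genes below it; columns are libraries, with PBS left and TNFa right of the vertical line, and cells marked 0 have no count. The 8 T cell receptor genes are above 0 in every library, whereas Ighv11-1, Ighv11-2 and Igkv14-126 are at 0 in PBS 1 and TNFa 5 alone and Igkv13-84 is above 0 only in PBS 1.

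Immunoglobulin constant genes also varied between libraries, with a coefficient of variation over the PBS libraries of 21.5% for Igkc and 158% for Igha. Ighm was at 120, 111 and 84.4 CPM with PBS and 121, 37.1 and 121 CPM with TNFa, where TNFa 5 was the lowest of the 6 libraries. Igkc was at 29.4, 45.4 and 41.4 CPM with PBS and 46.8, 28.4 and 66.0 CPM with TNFa, with overlapping groups. Ighg3 stayed at 0 to 0.908 CPM. Igha, the constant gene of IgA, was at 0.0341, 0.510 and 8.51 CPM with PBS and 0.237, 12.4 and 2.69 CPM with TNFa. Ighg2c had 108 of its 115 counts in TNFa 5, the library with the least Ighm.

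At the lambda locus the total did not separate the groups, but the division among its constant genes did. The 3 listed Iglc genes summed to 47.9, 20.7 and 3.92 CPM with PBS and 35.8, 39.2 and 29.0 CPM with TNFa, and these ranges overlapped. Iglc1 gave 1.07%, 6.39% and 6.45% of their counts in PBS 1 to 3 (95% Wilson intervals 0.647–1.75%, 4.71–8.62% and 3.31–12.2%). In TNFa 4 to 6 it gave 51.5%, 66.7% and 25.3% (48.3–54.8%, 63.8–69.5% and 22.7–28.2%). The shares did not overlap between the groups, and the intervals cover counting error only. Iglc1 itself was at 0.511, 1.33 and 0.253 CPM with PBS, from 15, 39 and 8 counts, and at 18.4, 26.1 and 7.34 CPM with TNFa, from 467, 700 and 243 counts.

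The other lambda genes overlapped between the groups. Iglc2 was at 25.4, 5.00 and 3.29 CPM with PBS and 16.6, 3.58 and 20.8 CPM with TNFa. Iglc3, next to Iglc1, was at 22.1, 14.4 and 0.380 CPM with PBS and 0.711, 9.45 and 0.877 CPM with TNFa. Iglv1, the V gene upstream of Iglc3 and Iglc1, was at 18.3, 11.3 and 0.285 CPM with PBS and 16.5, 24.9 and 6.41 CPM with TNFa. It followed the sum of Iglc1 and Iglc3, with 0.469 to 0.863 counts per count of these C genes in the 6 libraries. Iglv2, which lies upstream of Iglc2, was at 14.5, 1.43 and 1.61 CPM with PBS and 11.1, 1.94 and 13.3 CPM with TNFa, with 0.289 to 0.669 counts per Iglc2 count. Of the Iglc1 and Iglc3 counts, Iglc1 gave 2.26%, 8.42% and 41.0% in PBS 1 to 3 and 96.2%, 73.4% and 89.4% in TNFa 4 to 6, without overlap; in PBS 3 these rest on 19.5 counts. An antisense gene spans Iglc1, Iglc3 and Iglv1 in the annotation. Whether the counting used strand is not given in the sources used here, and that gene is not in the table.

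**Figure D4:**
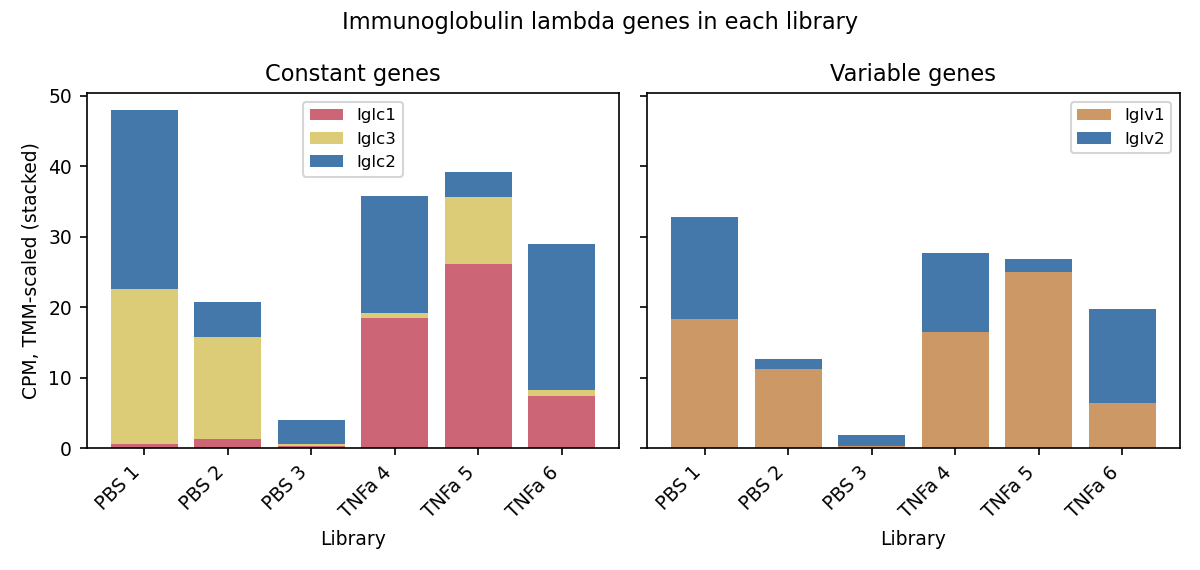
Stacked bars of the lambda constant genes (left) and lambda V genes (right) in each library, in TMM-scaled CPM. Iglc1 takes 1.07% to 6.45% of the constant gene counts in the PBS libraries and 25.3% to 66.7% in the TNFa libraries, while the total height overlaps between the groups.

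Which segments differed between TNFa and PBS was tested for the 44 members with enough counts, within a fit of 15719 genes. In the quasi-likelihood test of edgeR, adjusted after Benjamini-Hochberg, 1 of the 44 passed a threshold of 0.05, against a background of 0.102% of all tested genes (16 genes). That was 1 member higher, against 0.0891% of tested genes, and 0 lower, against 0.0127%. DESeq2 also called 1 member, against 1.57% of the genes it adjusted. That member was Iglc1, higher with TNFa in 3 of 3 libraries, with a log2 fold change of 4.63 ± 0.63 (SE), a 24.8-fold difference with a 95% interval of 9.35 to 66.0, and an edgeR quasi-likelihood adjusted p of 0.0363 (Benjamini-Hochberg). Leaving out PBS 1, PBS 2, PBS 3 or TNFa 4 ended this call, with edgeR quasi-likelihood adjusted p-values of 0.371, 0.0919, 0.317 and 0.158 (Benjamini-Hochberg), and the log2 fold change stayed between 4.21 and 5.49. At an unadjusted p under 0.05 there were 2 members, Iglc1 and Tcrg-C4, against 8.31% of all tested genes.

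T cell receptor genes lay lower with TNFa in most cases, by small amounts that did not pass the test. Of the 27 tested, 25 had a log2 fold change below 0, with a median of -0.28 against 0.0047 over all tested genes. The libraries of the groups did not overlap for 7 of the 44 members, 15.9%, against a background of 15.2% of tested genes. The 6 lower ones, Trac, Trbj2-1, Trbj2-4, Trbv1, Tcrg-C1 and Tcrg-C4, are all T cell receptor genes, against 8.36% of all tested genes in that direction, and the 1 higher one is Iglc1, against 6.85%.

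For Tcrg-C4 the log2 fold change was -0.22 ± 0.10 (SE), with an edgeR quasi-likelihood p of 0.044 and adjusted p of 0.57 (Benjamini-Hochberg). For Tcrg-C1 it was -0.19 ± 0.09, with an edgeR quasi-likelihood adjusted p of 0.64 (Benjamini-Hochberg). Trac had -0.38 ± 0.21 (SE), at an edgeR quasi-likelihood adjusted p of 0.69 (Benjamini-Hochberg). Trbc1 had -0.26 ± 0.12 and Trbc2 -0.20 ± 0.11, at edgeR quasi-likelihood adjusted p-values of 0.63 and 0.70 (Benjamini-Hochberg). Over whole loci, the summed level was 407 to 422 CPM with PBS and 351 to 371 CPM with TNFa at TRG. It was 353 to 377 CPM with PBS and 293 to 345 CPM with TNFa at TRB, and 15.1 to 16.2 CPM with PBS and 10.6 to 13.2 CPM with TNFa at TRA. The groups did not overlap at these 3 loci and overlapped at TRD, IGH, IGK and IGL. The sum of the T cell list moved the same way. It was 327–355 CPM with PBS and 284–292 CPM with TNFa. The list was led by Zap70, at 111 to 120 CPM with PBS and 98.7 to 111 CPM with TNFa. Next was Lat, at 62.8 to 74.8 CPM with PBS and 53.7 to 75.5 CPM with TNFa, and the groups overlapped for both. Of the 14 tested genes 11 were lower, Cd8a, Cd8b1 and Themis were higher, and 0 of 14 passed the test. On the ILC2 list, too, Gata3, Il1rl1, Rora, Icos, Klrg1, Il17rb and Arg1 were lower with TNFa without overlap, 7 of 14 genes, against 8.36% of all tested genes. Il5 and Areg were higher without overlap, against 6.85% of all tested genes. The part of either list in the receptor gene levels was not tested.

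Immunoglobulin genes had no common direction. Of 17 tested, 10 had a log2 fold change above 0, with a median of 0.28, and the only call was Iglc1. Ighm had -0.17 ± 0.38 (SE) and Igkc 0.28 ± 0.28 (SE), at edgeR quasi-likelihood adjusted p-values of 0.93 and 0.83 (Benjamini-Hochberg). Iglc3, the neighbour of Iglc1, had -1.74 ± 1.37 (SE), at an edgeR quasi-likelihood adjusted p of 0.79 (Benjamini-Hochberg).

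Near-identical copies limited what could be read from single genes. The deposited values are estimated counts, in which a read that fits several genes is divided among them. Counts of Iglc1 were whole numbers in all 6 libraries, as were all J gene counts, whereas those of Trbc1, Trbc2, Iglc2, Iglc3, Iglv1 and Iglv2 were not. Within 0.01, 72.6% of all member values were whole, against 41.7% over all genes. Values of 0 count as whole here, and 26.6% of member values were 0 after rounding, against 7.45% over all genes. Of the values of T cell receptor constant genes, 27.1% were whole. Trbc1 gave 31.4%, 28.1% and 30.8% of the Trbc1 and Trbc2 counts with PBS and 27.9%, 29.1% and 30.7% with TNFa. The means were 30.1% ± 1.74 (SD, n = 3) and 29.2% ± 1.38 (SD, n = 3), which an exact two-sided permutation test did not separate (p = 0.5, where 0.1 is the smallest that 3 against 3 allow). Summed over the pair, the log2 fold change was -0.22 ± 0.11 (SE), with an edgeR quasi-likelihood adjusted p of 0.65 (Benjamini-Hochberg).

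Ighv11-1 and Ighv11-2 kept a ratio of 3.27 to 3.91 in the 4 libraries that held them. With 4 differing bases, a read can fit either gene and is then divided by estimate, so their levels are uncertain one by one. Tcrg-C4 is not a near-identical copy of Tcrg-C1 (70.8% identity), and its counts per Tcrg-C1 count stayed at 0.802 to 0.837. Tcrg-C3 is 96.7% identical to Tcrg-C1 but had 1.45 to 38.0 estimated counts beside 4980 to 6966 for Tcrg-C1, so its own level is uncertain. The same holds for Tcrg-C2, 94.6% identical to Tcrg-C1 and so just below the 95% cut, with 6.40 to 89.0 estimated counts.

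Of the machinery of receptor assembly, the recombination and class switch list held 14 genes, of which 12 were listed and 10 tested, and 0 passed the test. Rag1, a subunit of the recombinase, was not listed. Rag2 was at 0.170, 0.238 and 0.253 CPM with PBS and 0.158, 0.299 and 0.181 CPM with TNFa, and Dntt, which adds bases at the joins, was at 0 to 0.538 CPM. The list was led by Hmgb2 and Hmgb1, abundant chromatin proteins with many other roles, and its sum of 1505 to 1732 CPM with PBS overlapped that of 1495 to 1798 CPM with TNFa. Genes for end joining were present, such as Xrcc6 at 74.8, 82.1 and 78.6 CPM with PBS and 95.2, 76.1 and 75.4 CPM with TNFa.

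The partner chains, which carry receptors to the cell surface and signal for them, numbered 11, of which 8 were listed and 7 tested, with 0 past the test. Cd3g was at 46.3, 42.9 and 39.8 CPM with PBS and 37.2, 50.4 and 36.0 CPM with TNFa, with overlap. Cd247, the CD3 zeta chain, was at 27.9, 29.7 and 33.3 CPM with PBS and 19.3, 15.6 and 26.5 CPM with TNFa, without overlap, at an edgeR quasi-likelihood adjusted p of 0.48 (Benjamini-Hochberg). The 8 genes summed to 116–119 CPM with PBS and 90.8–101 CPM with TNFa, and 6 of 7 tested genes had a log2 fold change below 0, with a median of -0.30. Of the surrogate light chain genes, which serve early B cells, Vpreb1 was at 0.170, 0.578 and 0.253 CPM with PBS and 0.0395, 0 and 0.212 CPM with TNFa, and Igll1, Vpreb2 and Vpreb3 were not listed.

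Marker lists of other cells gave 0 calls for T cells (14 tested), gamma-delta T cells (3), B cells (9) and plasma cells (7). The gamma-delta list summed to 1.77–4.15 CPM with PBS and 0.523–3.47 CPM with TNFa, beside 351 to 422 CPM of gamma locus transcripts. The plasma cell list summed to 791–799 CPM with PBS and 644–803 CPM with TNFa. It was led by Xbp1 and Irf4, which ILC2s also express, while Jchain, the joining chain of secreted IgM and IgA, was at 12.4, 13.0 and 9.27 CPM with PBS and 8.77, 14 and 10.3 CPM with TNFa, and Tnfrsf17 was not listed. On the ILC2 list 1 of 14 genes passed the test, Icos, which was lower with TNFa.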

How the data were processed

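RNA from 10 ng of input per library was sequenced from sorted lung ILC2s, 3 libraries with PBS and 3 with TNFa. The deposited values are estimated counts per gene, divided among matching genes by the authors with Partek's expectation maximisation, as the name of the deposited table states. The column of PBS 2 is marked as a repeat, per the file headers. Base calls came from CASAVA 1.8.2 and alignment to mm10 from STAR, per the submitters' processing notes. For the annotation release and the strand setting, the sources used here say nothing. Some genes of the lists are not reported here. All 121 members matched GENCODE M21 in start, end and type. The mm10 reference is of another strain than the BALB/c mice, and reads at segments that differ between strains were not analysed here.

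Estimated counts were rounded and fitted over all genes with edgeR 4.0.16 (R 4.3.3): filterByExpr (minimum count 10, minimum total 15), TMM scaling, robust quasi-likelihood test, TNFa against PBS with no covariate, Benjamini-Hochberg adjustment over 15719 genes and a threshold of 0.05. CPM per kb used the union of exons. Near-identical members were found with blastn 2.17.0, and coding sequences were aligned with Biopython 1.88. Permutation tests used SciPy 1.17.1. Genes named were every tested constant gene, members past the threshold, the 3 most abundant V or J genes per locus, the 5 tested members with the largest log2 fold change, their near-identical copies and, of other lists, genes past the threshold and the 2 most abundant. Others (such as Trbj2-4, Trbv13-2, Ighv2-9, Ighv12-3, Igkv13-84, Igkv4-91, Ighg2c, Cd79a, Cd79b, Ebf1, Fcer2a, Vpreb1, Cd247 and Xrcc6) were chosen after their values were seen. The members and gene lists were chosen with earlier results of these data known. Alternatives were another scaling, no filter, a filter at a mean of 5 CPM, DESeq2 1.42.0, near-identical members summed and leaving out each library. Depth was 25089415 to 32487004 counts per library, so that 3 counts correspond to 0.092 CPM in the deepest library.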

Additional observations from a re-analysis of the deposited data

How the results depend on the processing

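Iglc1 was the 1 member past the threshold by edgeR with size factors, with a stricter filter at a mean of 5 CPM and by DESeq2. Without a filter 0 members passed, with an Iglc1 log2 fold change of 4.62 at an edgeR quasi-likelihood adjusted p of 0.0636 (Benjamini-Hochberg), and with a library left out 0 to 1 passed. Of all genes, 16 passed in the reported fit, 3 without a filter, 25 with the stricter filter and 218 by DESeq2. With a library left out 1 to 67 passed: 1, 3 and 2 without PBS 1, 2 and 3, and 3, 67 and 5 without TNFa 4, 5 and 6. The cause was not tested. Iglc1 stayed at 4.21 to 5.49 on the log2 scale, the call ending without PBS 1, PBS 2, PBS 3 or TNFa 4 and holding without TNFa 5 or TNFa 6.

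Summed with Iglc3, its near-identical copy, Iglc2 turned from 0.29 to -0.44 on the log2 scale, a value that the Iglc3 counts enter. Leaving out 1 library, run for the 30 tested members under the naming rule and not for the other 14, changed the sign in 13, none of them past the threshold, with log2 fold changes of -0.44 to 0.024 for Trdv4, -0.20 to 0.14 for Trgj1, -0.18 to 0.020 for Trgv2, -0.41 to 0.20 for Ighm, -1.02 to 4.21 for Igha and -1.25 to 0.29 for Ighg3. They were -0.71 to 0.46 for Ighv11-1, -0.82 to 0.38 for Ighv11-2, -1.54 to 8.52 for Ighv6-6 (whose remaining PBS libraries were then at 0, so that the highest value is no bound), -0.29 to 0.79 for Ighv2-9-1, -0.045 to 0.54 for Igkc, -0.17 to 1.00 for Igkv14-126 and -0.15 to 1.72 for Iglc2. The T cell receptor constant genes kept their sign under each alternative run.

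As shares of counts per kb of exon, the constant genes took a mean of 51.9% at TRA, 11.2% at TRD, 71.8% at TRB, 70.1% at TRG, 46.9% at IGH, 55.5% at IGK and 53.1% at IGL, below their shares of counts by construction, since constant genes have longer exons. The Trbc1 share differed by -0.88 points between groups, and by -1.87 to -0.23 points with a library left out, an alternative chosen after seeing the data. The receptor assembly list gave 0 calls under each alternative, also chosen after seeing the data. Leaving out pseudogenes was not run, as none was listed. No paired analysis was possible because the groups share no replicate numbers. Depth limited the comparison to the 44 of 121 members with enough counts for the test.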
